A study of Mus musculus with 48 samples.

Results

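Ccl2, Ccl7, Ccl8 and Ccl12 encode the mouse CC chemokines known for drawing monocytes, and they are 4 of the 24537 gene rows counted in myeloid cells sorted from colon tumours. They were chosen by name as this family, and all 4 had counts. The tumours followed azoxymethane (AOM), a carcinogen, given with dextran sulfate sodium (DSS), which injures the colon lining, and every sample carries the label day 85. Cells were sorted by Ly6C, a surface protein abundant on inflammatory monocytes, and by MHC class II molecules, which display peptides to helper T cells. This gives 4 populations, Ly6Clo MHCIIhi, Ly6Clo MHCIIlo, Ly6Chi MHCIIhi and Ly6Chi MHCIIlo, each from mice labelled ko or ctrl for Ccl17, a chemokine gene that dendritic cells use. The ko and ctrl groups had 8 replicates each in Ly6Clo MHCIIhi and 4 each in the other populations. The sources used here give no strain, age, sex or allele. The series names ko mice housed with controls and ko mice housed apart, but no sample carries a housing label. The labels do not state whether each replicate is its own animal, so each p-value measures the spread between these samples, which may be technical.

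Chemokines are small secreted proteins that guide cells bearing matching receptors. CCL2, CCL7 and CCL12 act on CCR2, the receptor that brings Ly6C-high monocytes out of the bone marrow and into an inflamed gut, and mouse CCL8 is known as a ligand of CCR8. CCL7 also binds CCR1 and CCR3. In the colon, incoming monocytes gain MHC class II and then lose Ly6C as they turn into macrophages, and macrophages themselves release several of these chemokines.

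The 4 genes lie on chromosome 11 of GRCm38, all on the plus strand and each with 3 exons in GENCODE release M21. Ccl2 spans 82035571 to 82037453, Ccl7 spans 82045712 to 82047525, Ccl12 spans 82101845 to 82103400 and Ccl8 spans 82115185 to 82116799. Ccl11, which lies between Ccl7 and Ccl12, is not analysed here. Ccl1, the next gene after Ccl8, had 3 to 61 counts in a population. The closest members are Ccl2 and Ccl7, with 8258 bases between them, and Ccl12 and Ccl8 are 11784 bases apart.

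The 120 bases before the start are shown for Ccl8 and Ccl12 only, because the promoter set used held no entry for Ccl2 and Ccl7. They come from RefSeq (GRCm38.p6, plus strand), at chr11:82115065-82115184 and chr11:82101725-82101844, and capitals mark a TATAAA match.
Ccl8: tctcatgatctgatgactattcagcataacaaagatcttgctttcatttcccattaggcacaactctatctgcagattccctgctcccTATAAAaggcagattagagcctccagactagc
Ccl12: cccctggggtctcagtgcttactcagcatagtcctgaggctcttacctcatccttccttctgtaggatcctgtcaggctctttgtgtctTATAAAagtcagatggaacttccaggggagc
The search covered both strands from 250 bases before to 50 bases after each start, and the start was matched for 2 of the 4 members. TATAAA began 32 bases before the start of Ccl8 and 31 bases before that of Ccl12, and 13.6% of 32544 promoters of the same length hold it. No stretch read GGGNNNTTCC (NF-kB, in 5.56% of promoters), TGANTCA (AP-1, in 7.79%) or TTCNNNGAA (GAS, in 8.33%) in either window. In an alignment of both windows, 193 of 336 columns were identical (57.4%). These matches describe letters only.

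Replicates held 34362 to 891461 counts once Ly6Chi MHCIIhi ctrl replicate 2, a single library of 8409 counts, had been set aside, so 39 replicates entered the comparisons. In that library 1 count fell on Ccl2 and 1 on Ccl8. Ly6Chi MHCIIhi ctrl replicate 1 stood apart, with 238000 CPM (counts scaled to a common library total) summed over the 4 haemoglobin genes and 45900 CPM over 8 neutrophil genes. The other 6 replicates of Ly6Chi MHCIIhi held 84.9 to 1710 CPM and 537 to 1810 CPM of these. Ccl17 summed to 15 counts in 8 ko replicates and 510 counts in 8 ctrl replicates of Ly6Clo MHCIIhi. There 4 ctrl replicates lay between 0 and 9.66 CPM, so it checks only some labels. In the other populations no replicate of either genotype had over 7 counts of Ccl17, so it checks no label there. The gates were visible in Ly6c2 (26.4, 41.4, 497 and 1226 CPM) and in Cd74, the chaperone of MHC class II (13860, 2471, 9660 and 1858 CPM), as means of Ly6Clo MHCIIhi, Ly6Clo MHCIIlo, Ly6Chi MHCIIhi and Ly6Chi MHCIIlo.

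The 4 chemokine genes did not share 1 pattern across the populations. Ccl8 and Ccl12 had their highest mean in Ly6Clo MHCIIhi cells and their lowest in Ly6Chi MHCIIlo cells. Ccl2 had its highest mean in Ly6Chi MHCIIlo cells. Ccl7 was higher in Ly6Clo MHCIIhi cells than in each other population, but each of these calls was lost in samples of 1 genotype alone. Population values are CPM over replicates of both genotypes, and each adjusted p for a single gene comes from the quasi-likelihood test of edgeR with Benjamini-Hochberg adjustment over all genes tested in that comparison, unless another test is named. In sorted bulk samples, fewer cells that express a gene and less RNA per cell cannot be told apart. Where every replicate of a population lay above every replicate of another, the share of all genes that do so was not counted.

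**Figure D1:**
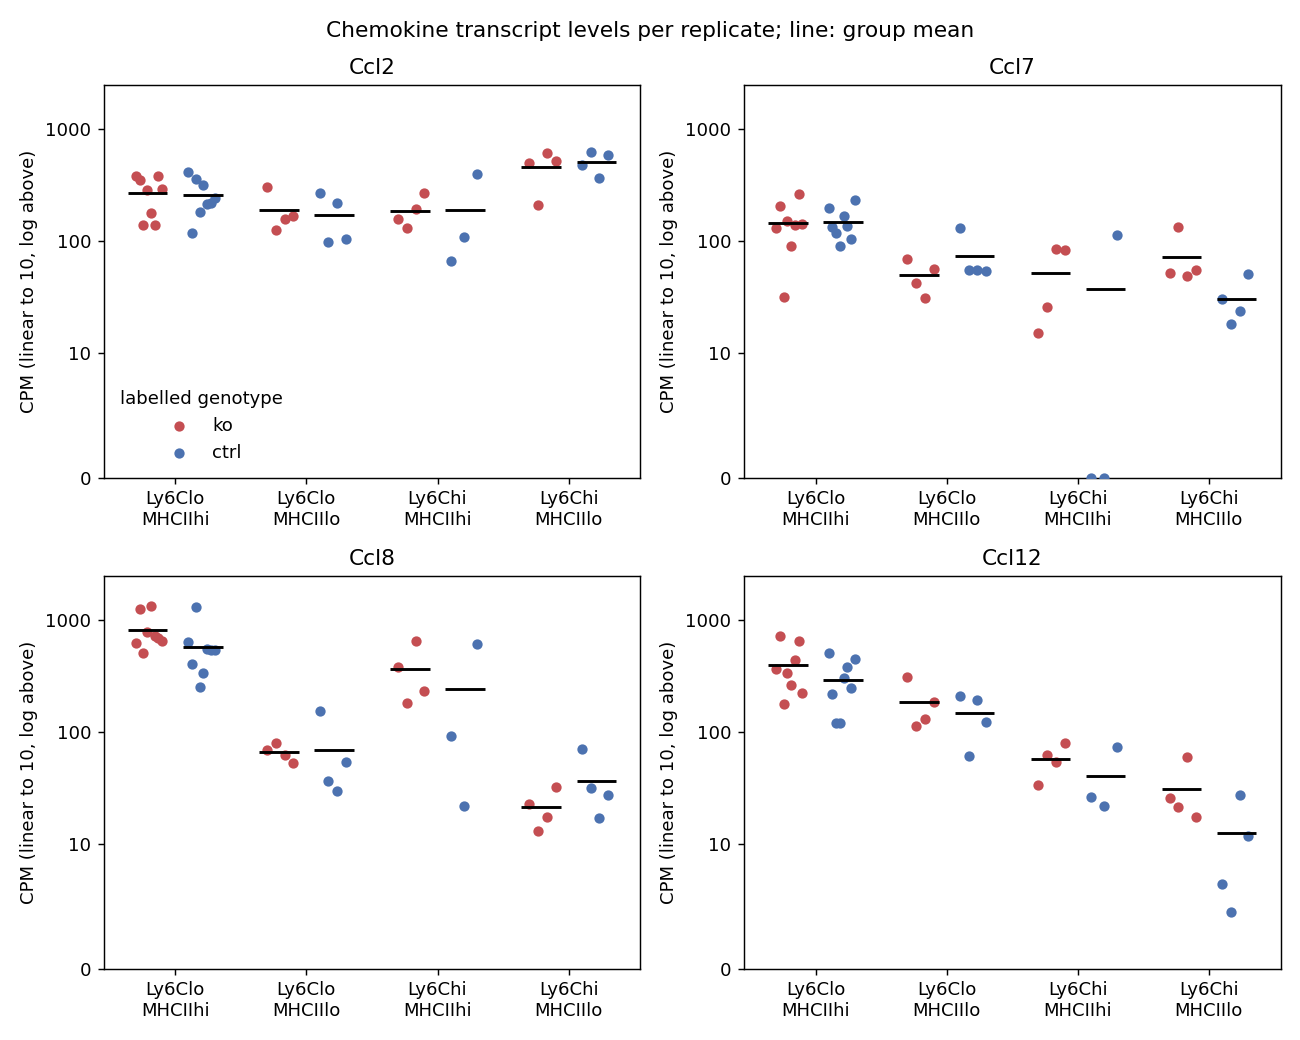
Levels of Ccl2, Ccl7, Ccl8 and Ccl12 in CPM (linear up to 10, log above) for each of 39 replicates, by population and labelled genotype, with a line at each group mean. Ccl8 lies between 252.6 and 1342 CPM in Ly6Clo MHCIIhi and between 12.99 and 71.3 CPM in Ly6Chi MHCIIlo, while Ccl2 reaches 628 CPM in Ly6Chi MHCIIlo.

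Ccl8 varied most. In Ly6Clo MHCIIhi its lowest, median and highest replicates were 252.6, 633 and 1342 CPM, and the mean was 699 ± 330 CPM (SD, n = 16). Ly6Clo MHCIIlo had 29.9, 58.9 and 154.5 CPM. Ly6Chi MHCIIhi had 22.1, 232 and 656 CPM, and Ly6Chi MHCIIlo had 12.99, 25.2 and 71.3 CPM. All 16 Ly6Clo MHCIIhi replicates lay above every replicate of both MHCIIlo populations, while Ly6Chi MHCIIhi overlapped every other population. Ccl8 was higher in Ly6Clo MHCIIhi than in Ly6Clo MHCIIlo by 3.23 on the log2 scale (SE 0.31, 9.38-fold, adjusted p = 4.92e-09). Against Ly6Chi MHCIIlo it was higher by 4.53 (SE 0.33, 23.2-fold, adjusted p = 2.86e-12). Among cells that share a high Ly6C level the difference had the same direction. Ccl8 was higher in Ly6Chi MHCIIhi than in Ly6Chi MHCIIlo by 3.62 (SE 0.42, 12.3-fold, adjusted p = 3.71e-05). Replicates of Ly6Chi MHCIIlo held only 3 to 21 counts of Ccl8, so folds over these cells rest on few counts. Without the replicate of 21 counts, ctrl replicate 1, Ccl8 fell under the count filter in this pair. Without the replicate rich in haemoglobin counts, this log2 difference was 3.76 (adjusted p = 2.62e-06), and without libraries under 100000 counts it was 4.02 (adjusted p = 3.2e-07). In ctrl samples alone, 3 against 4 replicates, it was 3.09 and did not pass (adjusted p = 0.179).

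MHCIIlo cells that differed in Ly6C differed less in Ccl8. It was higher in Ly6Clo MHCIIlo than in Ly6Chi MHCIIlo by 1.36 (SE 0.33, adjusted p = 0.00184), and lower in Ly6Clo MHCIIlo than in Ly6Chi MHCIIhi, at a log2 change of -2.24 (SE 0.39, adjusted p = 0.000296). The difference between Ly6Clo MHCIIhi and Ly6Chi MHCIIhi was the least secure, at 1.05 (SE 0.33, adjusted p = 0.0261). It was 0.80 without libraries under 100000 counts (adjusted p = 0.111) and 1.26 with replicate number as a block (adjusted p = 0.143). Leaving out Ly6Chi MHCIIhi ctrl replicate 3, ko replicate 1, ko replicate 2 or ko replicate 4 gave adjusted p of 0.0516, 0.054, 0.0742 and 0.0753. In ctrl samples alone no call of this paragraph held, with 1.03 for Ly6Clo MHCIIlo over Ly6Chi MHCIIlo (adjusted p = 0.171), -2.11 for Ly6Clo MHCIIlo over Ly6Chi MHCIIhi (adjusted p = 0.117) and 0.86 for Ly6Clo MHCIIhi over Ly6Chi MHCIIhi (adjusted p = 0.529).

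Ccl12, a ligand of CCR2 described in mice, followed Ly6C more closely. Its lowest, median and highest replicates were 119.97, 320.4 and 729 CPM in Ly6Clo MHCIIhi and 61.7, 159 and 309 CPM in Ly6Clo MHCIIlo. They were 22.1, 54.0 and 80.2 CPM in Ly6Chi MHCIIhi and 4.55, 19.6 and 59.6 CPM in Ly6Chi MHCIIlo. Every Ly6Clo MHCIIhi replicate lay above every replicate of both Ly6Chi populations, and every Ly6Clo MHCIIlo replicate lay above every Ly6Chi MHCIIlo replicate. Replicates of Ly6Chi MHCIIlo held only 1 to 17 counts of Ccl12, and 3 counts there equal 8.82 to 13.7 CPM, so folds over these cells rest on few counts. In Ly6Clo MHCIIhi it was higher than in Ly6Chi MHCIIhi by 2.64 (SE 0.35, 6.24-fold, adjusted p = 4.2e-06) and higher than in Ly6Chi MHCIIlo by 3.97 (SE 0.36, 15.7-fold, adjusted p = 3.12e-10). In Ly6Clo MHCIIlo it was higher than in Ly6Chi MHCIIlo by 3.09 (SE 0.32, 8.52-fold, adjusted p = 3.38e-08) and higher than in Ly6Chi MHCIIhi by 1.69 (SE 0.29, adjusted p = 0.000274). Between the Ly6Clo populations the difference was smaller, 0.93 higher in MHCIIhi (SE 0.27, 1.91-fold, adjusted p = 0.0111), and 8 of 16 MHCIIhi replicates lay above the highest MHCIIlo replicate. This call was lost in ctrl samples alone (0.90, adjusted p = 0.118) and in ko samples alone (0.97, adjusted p = 0.0837). It was also lost with replicate number as a block (0.73, adjusted p = 0.0542). The call of Ly6Clo MHCIIlo over Ly6Chi MHCIIhi was lost in ctrl samples alone (1.47, adjusted p = 0.142). In the Ly6Chi populations Ccl12 was under the count filter. There the mean log2(CPM + 1) was 1.37 higher in Ly6Chi MHCIIhi than in Ly6Chi MHCIIlo (n = 7 and 8). The two-sided exact permutation p was 0.0138, or 0.0414 after adjustment over 3 exact tests. The other exact tests were of ko over ctrl in Ly6Chi MHCIIlo. This adjustment is thus much milder than that over all genes, and 0.0414 is not comparable with the edgeR adjusted p. The exact test had no genotype term.

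Ccl2, the best known ligand of CCR2, ran the other way with Ly6C in MHCIIlo cells. Its lowest, median and highest replicates were 118, 267 and 421 CPM in Ly6Clo MHCIIhi, 98.7, 164 and 303 CPM in Ly6Clo MHCIIlo, and 66.3, 159 and 400.3 CPM in Ly6Chi MHCIIhi. In Ly6Chi MHCIIlo they were 212, 514 and 628 CPM. The first 3 populations overlapped broadly, and 6 of 8 Ly6Chi MHCIIlo replicates lay above every replicate of the other populations. Ccl2 was lower in Ly6Clo MHCIIlo than in Ly6Chi MHCIIlo, at a log2 change of -1.24 (SE 0.22, adjusted p = 8.04e-05). Against the same cells it was lower in Ly6Chi MHCIIhi, at -1.15 (SE 0.25, adjusted p = 0.0127), and in Ly6Clo MHCIIhi, at -0.85 (SE 0.18, adjusted p = 0.00038). In ctrl samples alone the change for Ly6Chi MHCIIhi was -1.08 and did not pass (adjusted p = 0.433). The other 3 pairs did not pass the threshold. Their log2 changes were 0.45 for Ly6Clo MHCIIhi over Ly6Clo MHCIIlo (95% interval 0.00 to 0.89, adjusted p = 0.116), 0.35 for Ly6Clo MHCIIhi over Ly6Chi MHCIIhi (-0.16 to 0.86, adjusted p = 0.352) and -0.10 for Ly6Clo MHCIIlo over Ly6Chi MHCIIhi (-0.70 to 0.50, adjusted p = 0.832). The first of these passed with no count filter (0.57, adjusted p = 0.00485) and without Ly6Clo MHCIIlo ko replicate 1 (0.59, adjusted p = 0.0478). It also passed with replicate number as a block (0.55, adjusted p = 0.0257).

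Ccl7, which binds CCR1, CCR2 and CCR3, had the fewest counts of the 4 in Ly6Clo MHCIIhi. There its lowest, median and highest replicates were 31.7, 139 and 268 CPM. Ly6Clo MHCIIlo had 31.6, 55.8 and 131 CPM, Ly6Chi MHCIIhi had 0, 25.8 and 113.1 CPM, and Ly6Chi MHCIIlo had 18.2, 50.1 and 134 CPM. All populations overlapped, with 10 to 12 of 16 Ly6Clo MHCIIhi replicates above the highest replicate of each other population. Ccl7 was higher in Ly6Clo MHCIIhi than in Ly6Clo MHCIIlo by 1.13 (SE 0.27, 2.19-fold, adjusted p = 0.00251), than in Ly6Chi MHCIIhi by 1.40 (SE 0.38, 2.64-fold, adjusted p = 0.00954) and than in Ly6Chi MHCIIlo by 1.54 (SE 0.30, 2.91-fold, adjusted p = 0.000107). In ctrl samples alone the first was 0.91 (adjusted p = 0.0628) and the second 1.12 (adjusted p = 0.314), and in ko samples alone the last was 1.04 (adjusted p = 0.0595), so none of the 3 passed in both genotypes. With replicate number as a block, the change over Ly6Chi MHCIIhi was 1.34 and did not pass (adjusted p = 0.123). No other pair passed in the reported test. The log2 changes were 0.20 for Ly6Clo MHCIIlo over Ly6Chi MHCIIhi (95% interval -0.70 to 1.09, adjusted p = 0.766), 0.49 for Ly6Clo MHCIIlo over Ly6Chi MHCIIlo (-0.23 to 1.20, adjusted p = 0.259) and 0.10 for Ly6Chi MHCIIhi over Ly6Chi MHCIIlo (-0.93 to 1.12, adjusted p = 0.96). The middle one was 1.40 in ctrl samples alone (adjusted p = 0.0163), where 4 of 4 Ly6Clo MHCIIlo replicates lay above every Ly6Chi MHCIIlo replicate, and -0.31 in ko samples alone, a difference between genotypes that was not tested for this pair by itself. It was 0.81 (adjusted p = 0.024) without Ly6Chi MHCIIlo ko replicate 2. Ccl7 had 0 counts in Ly6Chi MHCIIhi ctrl replicates 1 and 3, whose totals of 78264 and 34362 counts allow up to 39.8 and 66.2 CPM at 3 counts.

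**Figure D2:**
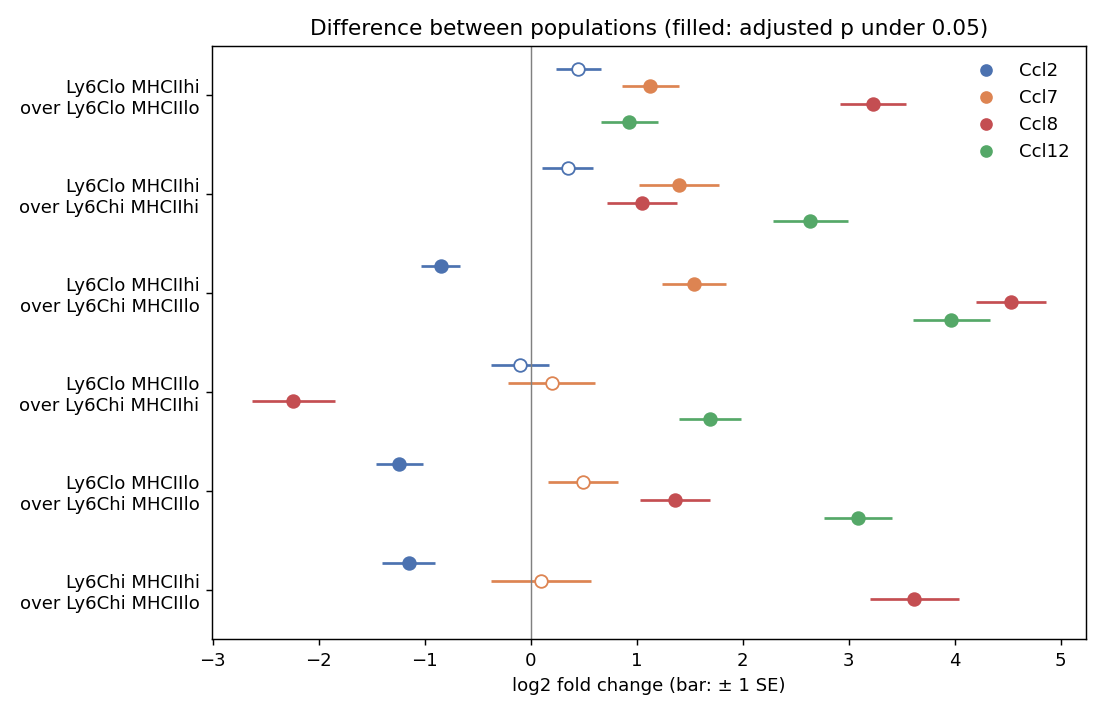
Log2 fold change of each chemokine gene (points) with its standard error (bars, ± 1 SE) for the 6 pairs of populations, with filled points past an adjusted p of 0.05. Ccl8 and Ccl12 sit furthest to the right for Ly6Clo MHCIIhi over Ly6Chi MHCIIlo, at 4.53 and 3.97, while Ccl2 sits left of 0 there, at -0.85.

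Set against all genes tested, several of these comparisons called a large share of genes. For Ly6Clo MHCIIhi over Ly6Chi MHCIIlo, 3 members were higher and 1 was lower, and 44.7% of 4836 genes passed, 22% as higher and 22.7% as lower. For Ly6Clo MHCIIlo over Ly6Chi MHCIIlo, 2 were higher, 1 was lower and 1 did not pass, and 39.4% of 3417 genes passed, 19% as higher and 20.4% as lower. For Ly6Clo MHCIIhi over Ly6Clo MHCIIlo, 3 of 4 were higher, and 28.7% of 4022 genes passed, 13.9% as higher and 14.8% as lower. Ly6Clo MHCIIlo over Ly6Chi MHCIIhi had 1 higher and 1 lower, and 27.2% of 3062 genes passed, 13% as higher and 14.2% as lower. Ly6Clo MHCIIhi over Ly6Chi MHCIIhi had 3 of 4 higher, and 18% of 4550 genes passed, 9.74% as higher and 8.31% as lower. In Ly6Chi MHCIIhi over Ly6Chi MHCIIlo, 1 of the 3 members tested was higher and 1 was lower, and 3.32% of 3676 genes passed, 1.58% as higher and 1.74% as lower. The median log2 change of the 4 members was 2.76 in the first of these comparisons (single values from -0.85 to 4.53). It was 1.03 for Ly6Clo MHCIIhi over Ly6Clo MHCIIlo (0.45 to 3.23). The median over all genes was 0.00 in both. Library scaling holds it near 0 in any comparison, so it is no yardstick for the members.

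Cell type markers moved with the same gates. Summed over 8 macrophage markers, the median was 39600 CPM in Ly6Clo MHCIIhi and 32900 CPM in Ly6Clo MHCIIlo. It was 11200 CPM in Ly6Chi MHCIIhi and 5590 CPM in Ly6Chi MHCIIlo, the same order as for Ccl12. The list holds Apoe (mean 25500 CPM in Ly6Clo MHCIIhi), C1qb and C1qc, the genes most like Ccl12 (below), so this order is partly built in. For Ly6Clo MHCIIhi over Ly6Clo MHCIIlo, 2 of 8 macrophage markers were higher and 6 did not pass, where 13.9% of all genes were higher. Summed over 8 neutrophil markers, replicates ran from 383 to 1860 CPM in Ly6Clo MHCIIhi and from 537 to 45900 CPM in Ly6Chi MHCIIhi. In the MHCIIlo populations, where Ccl8 was low, they ran from 5480 to 29400 CPM in Ly6Clo MHCIIlo and from 6410 to 16800 CPM in Ly6Chi MHCIIlo. Of 8 dendritic cell markers the summed median was 299, 72.1, 83.2 and 31.1 CPM in Ly6Clo MHCIIhi, Ly6Clo MHCIIlo, Ly6Chi MHCIIhi and Ly6Chi MHCIIlo, with Xcr1, Clec9a and Itgae at 0 in Ly6Chi MHCIIlo. The 7 B or plasma cell markers summed to medians of 1790, 91.7, 2160 and 412 CPM in the same order of populations. They were thus higher by median in the MHCIIhi populations, as Ccl8 was, but their replicates overlapped widely. The ranges were 56.8 to 28000, 57.9 to 4470, 80.2 to 14700 and 70.6 to 6550 CPM. In Ly6Clo MHCIIhi the median of these markers was 3430 CPM in ctrl and 183 CPM in ko replicates. Over 7 T or NK cell markers the sums ran from 33.8 to 180 CPM in Ly6Clo MHCIIhi, with medians of 48.4 CPM in Ly6Clo MHCIIlo, 162 CPM in Ly6Chi MHCIIhi and 47.6 CPM in Ly6Chi MHCIIlo, again higher by median in both MHCIIhi populations. For Ly6Clo MHCIIlo over Ly6Chi MHCIIhi, 2 of 2 B or plasma cell markers tested were lower, as were 14.2% of all genes. For Ly6Clo MHCIIhi over Ly6Clo MHCIIlo, 1 of 3 was higher, as were 13.9% of all genes. None of 3 passed over Ly6Chi MHCIIlo for either Ly6Clo MHCIIhi (44.7% of all genes) or Ly6Chi MHCIIhi (3.32%). Fibroblasts, another source of these chemokines in the gut, left little trace, with at most 165 CPM over 8 markers in any replicate and medians of 3.69 to 11 CPM. The part of these cells in the chemokine differences was not tested.

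The mix of the 4 transcripts differed by population. Counts were made at transcript 3′ ends and so are not divided by length, and a share here is of the counts on the 4 genes. In Ly6Clo MHCIIhi the median replicate had 47.4% Ccl8, 24.6% Ccl12, 18.6% Ccl2 and 10.2% Ccl7, over 11353 counts in all replicates. Ly6Clo MHCIIlo had 37.8% Ccl2, 35.5% Ccl12, 15.4% Ccl8 and 11.9% Ccl7. Ccl8 led again in Ly6Chi MHCIIhi, with 50%, followed by Ccl2 with 33.2%, Ccl12 with 12.0% and Ccl7 with 6.42%. Ccl2 made up 83.3% in Ly6Chi MHCIIlo, where no replicate was under 55.7%, and Ccl7, Ccl8 and Ccl12 had medians of 7.05%, 3.96% and 3.55%.

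**Figure D3:**
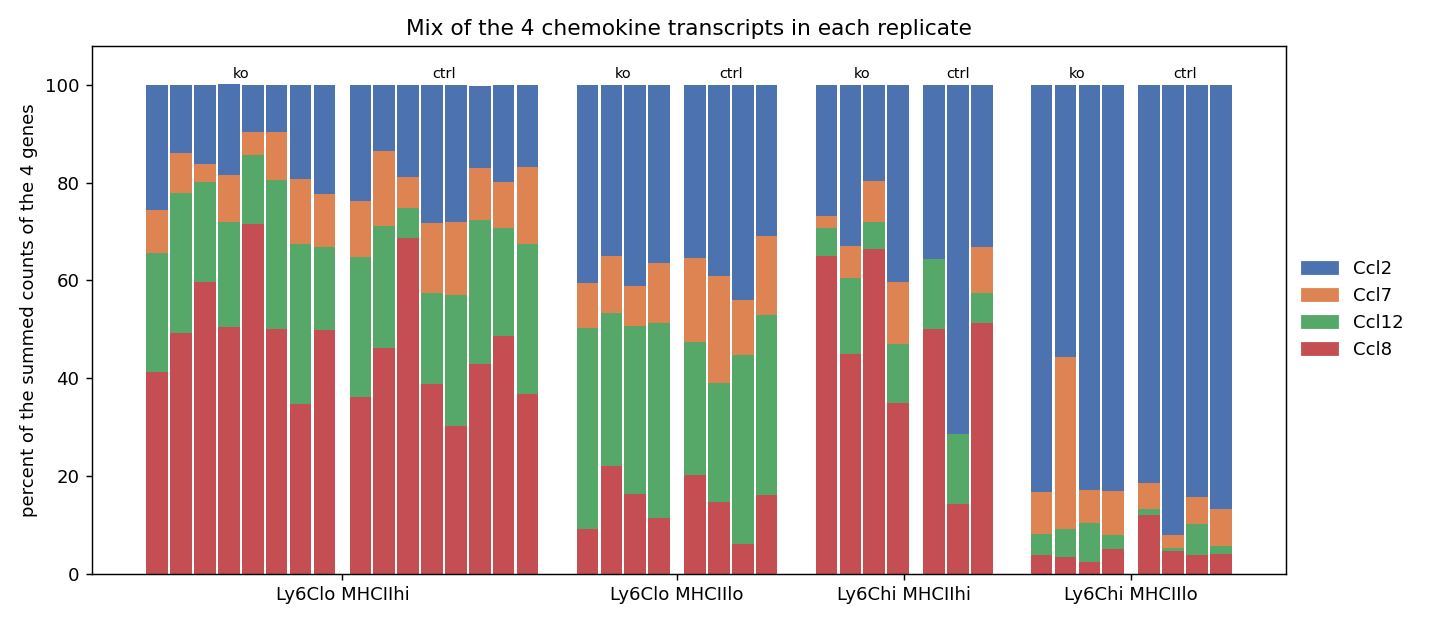
Percent of the summed counts of the 4 genes that fell on each gene, with 1 bar per replicate, grouped by population and labelled genotype. Ccl2 takes 55.7% to 92.0% of every Ly6Chi MHCIIlo bar and 9.56% to 28.3% of every Ly6Clo MHCIIhi bar.

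Ratios of 1 member to another were compared by two-sided permutation tests on log2 ratios, with 6 ratios over 6 pairs of populations. Of 36 tests, 26 had an adjusted p under 0.05. Ccl8 over Ccl2 differed in all 6 pairs. Its mean log2 ratio was 1.35 in Ly6Clo MHCIIhi, -1.44 in Ly6Clo MHCIIlo, 0.35 in Ly6Chi MHCIIhi and -4.09 in Ly6Chi MHCIIlo. For Ly6Clo MHCIIhi over Ly6Chi MHCIIlo the difference was 5.43 (permutation p adjusted over 36 tests 9.79e-06). The smallest was 1.00 for Ly6Clo MHCIIhi over Ly6Chi MHCIIhi (adjusted 0.0255). Ccl12 over Ccl7 varied less in the MHCIIhi and Ly6Clo populations, at 1.17, 1.36 and 0.70 in Ly6Clo MHCIIhi, Ly6Clo MHCIIlo and Ly6Chi MHCIIhi, and none of the 3 differences among them passed (adjusted permutation p of 0.215 to 0.493).

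Within a population, the members were compared over replicates by correlation of log2(CPM + 1), in 24 pairs of genes and populations. By Pearson's r, 6 pairs had an adjusted permutation p under 0.05. In Ly6Clo MHCIIhi (n = 16) Ccl7 went with Ccl12 (r = 0.68, rho = 0.78, adjusted permutation p = 0.0318 and 0.0078) and with Ccl2 (r = 0.59, rho = 0.54, adjusted permutation p = 0.0428 and 0.126). In Ly6Clo MHCIIlo (n = 8) Ccl2 went with Ccl12 (r = 0.91, rho = 0.98, exact permutation p adjusted 0.00953 and 0.0078). In Ly6Chi MHCIIhi (n = 7) Ccl7 had r of 0.88 with Ccl2, 0.86 with Ccl8 and 0.93 with Ccl12, and the rho values of 0.92, 0.85 and 0.81 had adjusted exact permutation p of 0.0571, 0.126 and 0.126. Without the 2 replicates farthest from the median of 1 gene of the pair (the first in the order Ccl2, Ccl7, Ccl8, Ccl12), no pair passed. The values of r were then 0.73, 0.56 and 0.89 in the Ly6Clo populations and 0.83, 0.45 and 0.77 in Ly6Chi MHCIIhi. Different pairs lost different replicates, so these values are not ranked. For Ccl7 with Ccl8 and with Ccl12 in Ly6Chi MHCIIhi they were ctrl replicates 1 and 3, which had 0 counts of Ccl7. In Ly6Chi MHCIIlo none of the 6 pairs passed, with r from -0.70 for Ccl8 and Ccl12 to 0.48 for Ccl2 and Ccl8.

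Labelled ko and labelled ctrl samples were compared in each population, which asks whether loss of Ccl17 goes with a change in the chemokines that call monocytes. No member passed the threshold in any population. Of all genes tested, 0% of 5660 passed in Ly6Clo MHCIIhi, 0.0314% of 3182 in Ly6Clo MHCIIlo, 0% of 3509 in Ly6Chi MHCIIhi and 0.0756% of 3966 in Ly6Chi MHCIIlo. With no adjustment, 296 genes in Ly6Clo MHCIIhi, 136 in Ly6Clo MHCIIlo, 245 in Ly6Chi MHCIIhi and 444 in Ly6Chi MHCIIlo had an edgeR p under 0.05. DESeq2 passed 0, 2, 4 and 14 genes in these populations, and none was a member.

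Ccl8 in Ly6Clo MHCIIhi ran from 514 to 1342 CPM in ko replicates, with a median of 708, and from 252.6 to 1313 CPM in ctrl replicates, with a median of 542. The groups overlapped, since ctrl replicate 3 lay above 7 of 8 ko replicates. The log2 change was 0.50 (95% interval -0.06 to 1.05, p = 0.0677, edgeR adjusted p = 0.951). Ccl12 in the same cells had medians of 352 CPM in ko and 276 CPM in ctrl replicates and a log2 change of 0.37 (-0.25 to 0.98, adjusted p = 0.974). Ccl2 and Ccl7 differed by 0.04 (-0.43 to 0.51) and -0.07 (-0.64 to 0.50), so with 8 against 8 replicates neither interval reached past 0.64 on the log2 scale in either direction.

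Ccl7 in Ly6Chi MHCIIlo had the largest log2 change among the edgeR genotype tests of members. Ko replicates had 52.1, 134, 49.1 and 55.9 CPM, and ctrl replicates had 30.6, 18.2, 23.9 and 51.1 CPM. Only ko replicate 3 lay under the highest ctrl replicate, so the groups overlapped by 1 sample. The log2 change was 1.16 (SE 0.43, 95% interval 0.11 to 2.21, p = 0.0166, edgeR adjusted p = 0.332). Leaving out each replicate in turn gave 0.69 to 1.48. Ccl2 in these cells differed by -0.20 (-0.83 to 0.43). Ccl8 and Ccl12 were under the count filter there. Ccl8 had 22.8, 12.99, 17.5 and 32.3 CPM in ko replicates and 71.3, 31.9, 17.1 and 27.5 CPM in ctrl replicates (two-sided exact permutation p = 0.286). Ccl12 had 26.1, 21.7, 59.6 and 17.6 CPM in ko replicates and 6.79, 4.55, 27.3 and 11.8 CPM in ctrl replicates (exact permutation p = 0.114). With 4 replicates against 4 the smallest p this exact test can give is 0.0286.

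In Ly6Clo MHCIIlo the log2 changes were 0.10 for Ccl2, -0.56 for Ccl7, -0.05 for Ccl8 and 0.29 for Ccl12, with an adjusted p of 0.999 each. For Ccl7 the ko replicates had 69.2, 42.4, 31.6 and 56.8 CPM, and the ctrl replicates had 131, 55.5, 56.1 and 54.6 CPM, with 2 ko replicates under the lowest ctrl replicate. Ccl12 in these cells had 309, 113.2, 132 and 187 CPM in ko replicates, against 211, 61.7, 194 and 124 CPM in ctrl replicates, and the groups overlapped throughout. Ccl8 had 69.2, 80.2, 63.2 and 52.7 CPM in ko replicates, all within the 154.5, 37.0, 29.9 and 54.6 CPM of ctrl replicates. In Ly6Chi MHCIIhi they were -0.47, -0.50, 0.14 and -0.05, with 95% intervals as wide as -2.49 to 1.48 for Ccl7. Ccl2 there had 159, 133, 193 and 269 CPM in ko replicates, all within the 66.3, 110.4 and 400.3 CPM of ctrl replicates 1, 3 and 4. Without ctrl replicate 4 the Ccl2 change was 0.66, and without the replicate rich in haemoglobin counts it was -0.80. Ccl8 had 386, 181, 656 and 232 CPM in ko replicates, against 92.8, 22.1 and 618 CPM in ctrl replicates. Ctrl replicates 1 and 3 lay under every ko replicate, and ctrl replicate 4 lay above 3 of 4. Ccl12 had the same layout on a lower scale, with 34.0, 62.7, 54.0 and 80.2 CPM in ko replicates and 26.5, 22.1 and 74.0 CPM in ctrl replicates. The totals of ctrl replicates 1 and 3, 78264 and 34362 counts, were the lowest of this population.

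A test of whether the genotype difference itself differed between populations gave adjusted p of 0.978 for Ccl2, 0.841 for Ccl7, 0.951 for Ccl8 and 0.969 for Ccl12 in edgeR, and 0.0663% of 6032 genes passed. Outside Ly6Clo MHCIIhi, ctrl libraries had sample barcodes rich in A and T and ko libraries had barcodes rich in G and C, so a difference by genotype and one by barcode class cannot be told apart in those 3 populations. Both classes occur in both genotypes of Ly6Clo MHCIIhi. With each library as its own sample and barcode class as a term, Ccl8 had a log2 change of 0.63 (edgeR adjusted p = 0.502). That fit counts the 2 libraries of 1 replicate as separate samples, so its p overstates the replication.

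**Figure D4:**
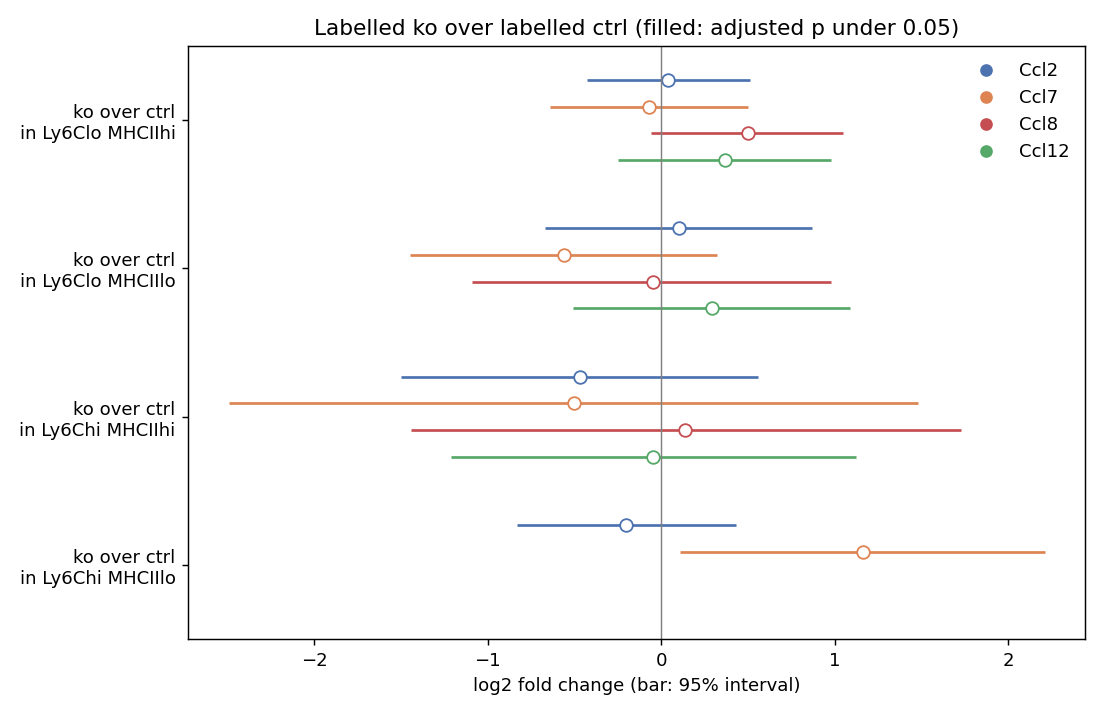
Log2 fold change of ko over ctrl (points) with its 95% interval (bars) for each chemokine gene tested in each population, where open points have an adjusted p of 0.05 or more. Every point is open, and only the interval of Ccl7 in Ly6Chi MHCIIlo, 0.11 to 2.21, lies right of 0.

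The receptors differed between populations too, most of all Ccr2. Its mean was 89.0 ± 28.4 CPM in Ly6Clo MHCIIhi (SD, n = 16), 57.2 ± 26.9 CPM in Ly6Clo MHCIIlo (n = 8), 169 ± 105 CPM in Ly6Chi MHCIIhi (n = 7) and 301 ± 40.1 CPM in Ly6Chi MHCIIlo (n = 8). Ccr2 was lower in Ly6Clo MHCIIlo than in Ly6Chi MHCIIlo, at -2.21 (SE 0.20, adjusted p = 3.05e-09 in edgeR), and lower in Ly6Clo MHCIIhi than in Ly6Chi MHCIIhi, at -1.08 (SE 0.24, adjusted p = 0.00173 in edgeR). Ccr2 and Ccl2 thus both had their highest mean in Ly6Chi MHCIIlo. Ccr1 had means of 264, 231, 289 and 362 CPM in Ly6Clo MHCIIhi, Ly6Clo MHCIIlo, Ly6Chi MHCIIhi and Ly6Chi MHCIIlo. The receptor of CCL8, Ccr8, had 2 counts in Ly6Clo MHCIIhi, 0 in Ly6Clo MHCIIlo, 1 in Ly6Chi MHCIIhi and 0 in Ly6Chi MHCIIlo. Ccr3 had 1 to 22 counts in a population, and the scavenging receptors Ackr1 and Ackr2 were under the filter everywhere. Neither Ccr2 nor Ccr1 passed for ko over ctrl in any population.

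**Figure D5:**
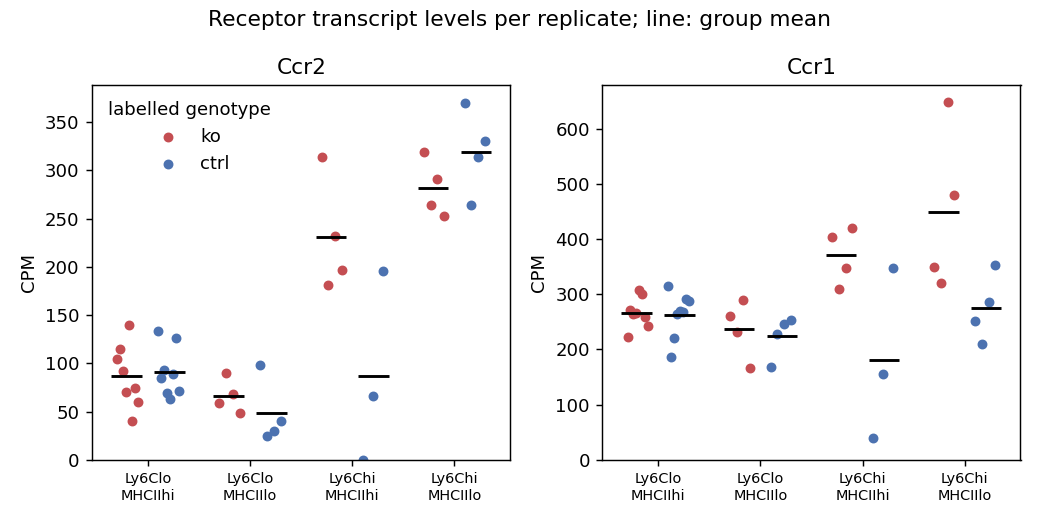
Levels of Ccr2 and Ccr1 in CPM for each replicate, by population and labelled genotype, with a line at each group mean. Ccr2 lies between 252.8 and 370.1 CPM in Ly6Chi MHCIIlo and between 39.9 and 139.5 CPM in Ly6Clo MHCIIhi.

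Other ligands that act on myeloid cells were counted as a list of 8. For Ly6Clo MHCIIhi over Ly6Chi MHCIIlo, 1 of 7 tested was higher and 2 were lower, where 44.7% of all genes passed. Csf1, the growth factor of macrophages, was higher by 1.39 (adjusted p = 0.00185), and Ccl6 and Ccl9, ligands of CCR1, were lower at -1.03 and -1.07 (edgeR adjusted p of 5.22e-10 and 2.77e-06). For Ly6Clo MHCIIhi over Ly6Clo MHCIIlo, 3 of 7 were lower (14.8% of all genes), Ccl6 at -0.91, Ccl9 at -0.64 and Csf1 at -1.99. Ccl3 and Ccl4, chemokines of activated macrophages, passed in no pair of populations, with means of 1231 to 1622 CPM and 2140 to 2620 CPM. Ccl5, a T cell and monocyte attractant, had medians of 429.5 CPM in Ly6Clo MHCIIhi, 216 CPM in Ly6Clo MHCIIlo, 457 CPM in Ly6Chi MHCIIhi and 133 CPM in Ly6Chi MHCIIlo, so its medians, like those of Ccl8, were higher in the MHCIIhi populations. It was lower in Ly6Clo MHCIIlo than in Ly6Chi MHCIIhi, at -1.89 (edgeR adjusted p = 0.0328), and its change of 1.79 for Ly6Clo MHCIIhi over Ly6Chi MHCIIlo did not pass (adjusted p = 0.087). Cx3cl1, the ligand of the receptor CX3CR1, was under the count filter between populations, with means of 15.02 CPM in Ly6Clo MHCIIhi, 6.14 CPM in Ly6Clo MHCIIlo, 1.61 CPM in Ly6Chi MHCIIhi and 2.79 CPM in Ly6Chi MHCIIlo.

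Genes known to induce or restrain these chemokines were counted as a list of 25, of which Tnf is not analysed here. For Ly6Clo MHCIIlo over Ly6Chi MHCIIlo, 11 of 21 tested were lower and none was higher, with a median log2 change of -0.51, where 20.4% of all genes were lower and 19% higher. Among them were Nfkbia, the NF-kB inhibitor that NF-kB itself induces, at -1.19 (adjusted p = 6.54e-08), Irf7, an interferon response factor, at -1.77 (adjusted p = 1.98e-06), Cebpb at -0.77 (adjusted p = 0.000147) and Il1b at -0.73 (edgeR adjusted p = 0.000165). For Ly6Clo MHCIIhi over Ly6Chi MHCIIlo, 11 of 23 were lower and 2 were higher (22.7% and 22% of all genes), among them Fos, a subunit of AP-1, at 0.55 (edgeR adjusted p = 0.00171). In Ly6Clo MHCIIhi over Ly6Clo MHCIIlo, 5 of 22 were higher and none was lower (13.9% and 14.8% of all genes), among them Relb at 0.60 and Il10, an anti-inflammatory cytokine, at 1.02 (edgeR adjusted p of 0.00946 and 0.033). None of 22 passed for Ly6Chi MHCIIhi over Ly6Chi MHCIIlo, where 3.32% of all genes passed. None passed for ko over ctrl.

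The genes most like each member were taken by Pearson's r of log2(CPM + 1) over all 39 replicates, among genes with a mean of at least 20 CPM. These r values are a description, since the replicates fall into 4 populations and share their libraries. Ccl12 was most like the complement genes C1qc (r = 0.91) and C1qb (0.90) and Apoe (0.91), a lipid carrier that macrophages secrete. Ccl8 was most like Cd74 (0.91), then Ddt, a relative of the cytokine MIF (0.81), and Herpud1, a gene of the response to misfolded protein (0.81). Ccl7 was most like Gnptg, which helps tag lysosomal enzymes (0.87), Fcgrt, the neonatal Fc receptor (0.86), and Fam3c (0.86). Ccl2 was most like Zfp36, which encodes a protein that destabilises cytokine mRNA (0.76), Dusp1, a phosphatase that dampens MAP kinases (0.70), and Apoc1 (0.70). Zfp36 and Dusp1 are also among the immediate early genes that rise while tissue is handled, whose sum over 12 genes had medians of 16100 CPM in Ly6Clo MHCIIhi, 11800 CPM in Ly6Clo MHCIIlo, 13400 CPM in Ly6Chi MHCIIhi and 15400 CPM in Ly6Chi MHCIIlo. Their part in the Ccl2 levels was not tested. Among the members themselves, Ccl8 with Ccl12 had the highest r, 0.68, and Ccl2 with Ccl12 the lowest, -0.15.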

How the data were processed

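Poly(A) RNA of sorted cells was sequenced at its 3′ ends in 48 barcoded libraries, per the labels' protocols. The authors deposited 1 table of whole-number counts per gene and library with no normalization, on build GRCm38, with R 3.4.4 and DESeq2 1.18.1, per the submitters' processing notes. The sources used here name no aligner, counter or annotation and do not say whether counts are of molecules, so floors cover counting error only.

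Libraries of 1 replicate were added (8 replicates had 2), 1 library under 28006.25 counts (0.1 of the median) was left out, and a row naming no gene, with 0.000967% of counts, was removed. Replicates used held 34362 to 891461 counts. CPM use TMM library sizes. Genes passed filterByExpr (minimum count 10, minimum total 15) and were tested by the quasi-likelihood test of edgeR 4.0.16 (R 4.3.3), adjusted by Benjamini-Hochberg over all genes of a comparison, at 0.05, with genotype as a term between populations. Members under the filter had two-sided exact permutation tests of log2(CPM + 1). Correlations and ratios used exact tests or 100000 resamples (SciPy 1.17.1), and log2 ratios used a pseudocount of 0.5. Coordinates are from GENCODE M21. The test was checked on simulated data. Members named in the text are the 4 genes, pathway genes come from lists, and the 3 most similar genes per member are named by r. The members and lists were chosen with earlier results of these data known, and the promoter motifs and the ratio tests after the data were seen.

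Whether equal replicate numbers pair samples was checked by the correlation of deviations from group means. The labels do not say that a number is 1 animal, and no comparison had every pair over 0.1, so no block was used. A single weak pair fails this rule, and all 7 pairs of the Ly6Chi populations correlated best with their own number. The reported tests between populations leave out any such pairing, and calls that a replicate block changed are given with each gene. Alternatives were no filter, the test of DESeq2 1.42.0, its size factors in edgeR, other library rules, barcode class, 1 genotype only, all 8 groups in 1 fit, a replicate block, other pseudocounts and leaving out each replicate.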

Additional observations from a re-analysis of the deposited data

Results flagged for a closer look

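In 28 groups of 4 to 8 replicates, 3 values lay far from the rest of their group by Dixon's test, where chance gives about 5% of groups. Ccl7 in Ly6Clo MHCIIlo ctrl replicate 1 was at 131.1 CPM, and the other 3 replicates were between 54.6 and 56.1 CPM. Ccl7 in Ly6Chi MHCIIlo ko replicate 2 was at 134.2 CPM, against 49.1 to 55.9 CPM in the other 3. Ccl8 in Ly6Clo MHCIIhi ctrl replicate 3 was at 1313 CPM, with the other 7 between 252.6 and 639.7 CPM. Without these replicates, the log2 change of ko over ctrl was -0.16 for Ccl7 in Ly6Clo MHCIIlo (-0.56 with it), 0.69 for Ccl7 in Ly6Chi MHCIIlo (1.16 with it) and 0.80 for Ccl8 in Ly6Clo MHCIIhi (0.50 with it), and none of these was called.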

How the results depend on the processing

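Of 326 settings of single log2 changes other than leaving out a replicate, 293 kept direction and side of the threshold. With ctrl samples only, members called were 0 for Ly6Chi MHCIIhi over Ly6Chi MHCIIlo (2 in the reported test), 1 for Ly6Clo MHCIIhi over Ly6Chi MHCIIhi (3), 1 for Ly6Clo MHCIIhi over Ly6Clo MHCIIlo (3) and 0 for Ly6Clo MHCIIlo over Ly6Chi MHCIIhi (2), with fewer samples. A replicate block gave 1 for Ly6Clo MHCIIhi over Ly6Chi MHCIIhi and changed no other count of members by over 1.5 times. With the block, Ccl7 (1.34, edgeR adjusted p = 0.123) and Ccl8 (1.26, 0.143) in that pair and Ccl12 (0.73, 0.0542) for Ly6Clo MHCIIhi over Ly6Clo MHCIIlo lost their calls, and Ccl2 gained one in the last pair (0.55, 0.0257). In ko samples only, Ccl12 there (0.97, 0.0837) and Ccl7 for Ly6Clo MHCIIhi over Ly6Chi MHCIIlo (1.04, 0.0595) lost theirs. Samples share numbers only, although all 7 pairs of the Ly6Chi populations correlated best with their own number. So did 6 of 7 pairs of Ly6Clo MHCIIlo with Ly6Chi MHCIIhi and 5 of 8 of Ly6Clo MHCIIlo with Ly6Chi MHCIIlo. Pairs with Ly6Clo MHCIIhi did so less, in 2 of 8 (Ly6Clo MHCIIlo), 1 of 7 (Ly6Chi MHCIIhi) and 2 of 8 (Ly6Chi MHCIIlo). Leaving out each replicate gave 1 to 2 members for Ly6Chi MHCIIhi over Ly6Chi MHCIIlo (without Ly6Chi MHCIIlo ctrl replicate 1, Ccl8 was under the filter), and 0 relations passed without the 2 farthest replicates (6 with them).

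No change of sign touched a called value, and the cause was not tested. For ko over ctrl in Ly6Chi MHCIIhi, Ccl12 turned to 0.00077 in DESeq2, 0.02 with all 8 groups, 0.12 with no filter and 0.15 with the replicate block, Ccl7 to 0.05 in DESeq2 and 0.41 with the block, and Ccl8 to -0.79 without libraries under 100000 counts. In Ly6Clo MHCIIhi, Ccl2 turned to -0.03 with the first library only and -0.0029 with the block, and in Ly6Clo MHCIIlo Ccl8 turned to 0.08 with the block. Between populations, Ccl7 turned to -0.25 with the block and -0.52 with ko samples only (Ly6Chi MHCIIhi over Ly6Chi MHCIIlo), -0.06 without libraries under 100000 counts (Ly6Clo MHCIIlo over Ly6Chi MHCIIhi) and -0.31 with ko samples only (Ly6Clo MHCIIlo over Ly6Chi MHCIIlo), and Ccl2 to 0.19 with ko samples only (Ly6Clo MHCIIlo over Ly6Chi MHCIIhi).

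Leaving out each replicate, ko over ctrl ran in Ly6Chi MHCIIhi from -0.80 to 0.66 for Ccl2, -0.88 to 6.06 for Ccl7, -0.35 to 1.94 for Ccl8 and -0.17 to 0.70 for Ccl12. It ran in Ly6Chi MHCIIlo from -0.36 to 0.02 for Ccl2, in Ly6Clo MHCIIhi from -0.05 to 0.17 for Ccl2 and -0.27 to 0.08 for Ccl7, and in Ly6Clo MHCIIlo from -0.22 to 0.36 for Ccl2, -0.37 to 0.71 for Ccl8 and -0.07 to 0.47 for Ccl12. Ccl7 ran from -0.66 to 0.46 for Ly6Chi MHCIIhi over Ly6Chi MHCIIlo, and Ccl2 from -0.27 to 0.28 for Ly6Clo MHCIIlo over Ly6Chi MHCIIhi.

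Counts of all genes called moved more. For Ly6Chi MHCIIhi over Ly6Chi MHCIIlo, 122 genes became 192 in DESeq2, 303 with no filter, 195 without libraries under 100000 counts, 304 with all groups, 0 and 66 in ctrl and ko samples alone, and 54 to 205 on leaving out a replicate. In ctrl and ko samples alone, Ly6Clo MHCIIhi over Ly6Clo MHCIIlo had 325 and 593 genes, against 1155 (692 with the block), and Ly6Clo MHCIIlo over Ly6Chi MHCIIlo had 766 and 873, against 1347. In ctrl samples alone, Ly6Clo MHCIIhi over Ly6Chi MHCIIhi had 56, against 821 (428 with the block), Ly6Clo MHCIIhi over Ly6Chi MHCIIlo 1257, against 2163, and Ly6Clo MHCIIlo over Ly6Chi MHCIIhi 31, against 833. For ko over ctrl, no filter gave 57 genes in Ly6Clo MHCIIhi (0 reported), 24 in Ly6Clo MHCIIlo (1), 61 in Ly6Chi MHCIIlo (3) and, in Ly6Chi MHCIIhi (0), 1 more than the 112 of the interaction test with no filter (4 reported), leaving out a replicate gave 0 to 6 in Ly6Clo MHCIIlo, 0 to 8 in Ly6Chi MHCIIlo, 0 to 28 in Ly6Chi MHCIIhi and 0 to 86 for the interaction, the other settings gave 0 to 36, and none of these was a member. Replicates of few counts limit the Ly6Chi MHCIIhi values, since 3 counts there equal up to 66.2 CPM.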

Other observations

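The 8 Ly6Clo MHCIIhi replicates with 2 libraries allow a look at repeat libraries. Their libraries differed most for Ccl7 in ctrl replicate 7, at 173 and 37.3 CPM, and for Ccl12 in ko replicate 8, at 282 and 60.2 CPM. In the library left out, 3 counts equal 357 CPM, which is above the mean of every member in Ly6Chi MHCIIhi.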
